A study of Mus musculus with 5 samples.

Results

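Naïve neutrophils and naïve monocytes of mouse bone marrow (BM) were compared gene by gene. These are 2 of the 5 RNA-seq libraries of the series, and each condition has 1 library. Every library came from the BM of C57BL/6 mice aged 7 weeks with the genotype +/Ym1Venus, in which 1 allele of Ym1 carries the fluorescent reporter Venus. The neutrophil library was made from Ly6G+ cells, and the monocyte library from Ly6Chi monocytes gated as Ly6C+ CD115+ and Venus-, so that monocytes expressing the reporter were left out of it. Neither group received LPS, although the protocol shared by all records speaks of cells taken 48 h after the injection. The other 3 libraries hold neutrophils, Ym1- monocytes and Ym1+ monocytes taken 48 h after 100 µg of LPS (bacterial lipopolysaccharide) per mouse, given intravenously. The labels do not say how many mice were pooled for each. With a single library per condition there was nothing to test a difference against, so that no p-value is given and the values hold for these libraries.

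Neutrophils and monocytes are the main circulating phagocytes and arise from a shared progenitor in the marrow. Neutrophils build granules in a fixed order while they mature. Azurophil granules with myeloperoxidase and serine proteases come early, specific granules with lactoferrin later, and gelatinase granules and secretory vesicles last. The mRNA for a granule protein is present mainly at the stage that makes it. Ly6Chi monocytes are short-lived cells that leave the marrow through the chemokine receptor CCR2 and can become macrophages and dendritic cells. Their identity depends on IRF8 and KLF4, whereas C/EBP family factors and GFI1 direct the granulocyte program. PU.1 is needed for both.

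The authors deposited FPKM, a fragment count set against the length of the transcript and the size of the library, with 23234 gene symbols in each. The pair was compared on scaled FPKM, that is, FPKM divided by a factor of 0.747 for naïve neutrophils and 1.22 for naïve monocytes. The factors come from the median of ratios over the 8136 genes that reached an FPKM of 1 in all 5 libraries. Differences are of log2(scaled FPKM + 1), neutrophil minus monocyte, and understate the change of low genes. In total, 10944 genes reached an FPKM of 1 in either naïve library. Short RNA genes, 41 in number, were left out, as were 181 further genes listed at 0 in neutrophils and 99 listed at 0 in monocytes, and 10623 genes were compared. The scaling matters for the balance of directions. Over all genes compared, the difference had a median of -0.18 after it, -0.77 for FPKM as deposited and -1.19 for TPM, and list medians below are read against -0.18.

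Among the 10623 genes, 2023 (19.0%) were at least 2-fold higher in naïve neutrophils and 2749 (25.9%) were at least 2-fold lower, while 5851 (55.1%) lay within 2-fold. With FPKM as deposited the counts were 1074 higher and 4474 lower. At a 4-fold difference 723 genes (6.81%) were higher and 909 (8.56%) lower. After scaling, the order turned at larger differences, with 162 genes at least 16-fold higher against 111 lower and 50 genes at least 64-fold higher against 18 lower. Counts at 4-fold and above were not made with FPKM as deposited. They also lack the genes listed at 0, which were 181 for neutrophils and 99 for monocytes.

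**Figure D1:**
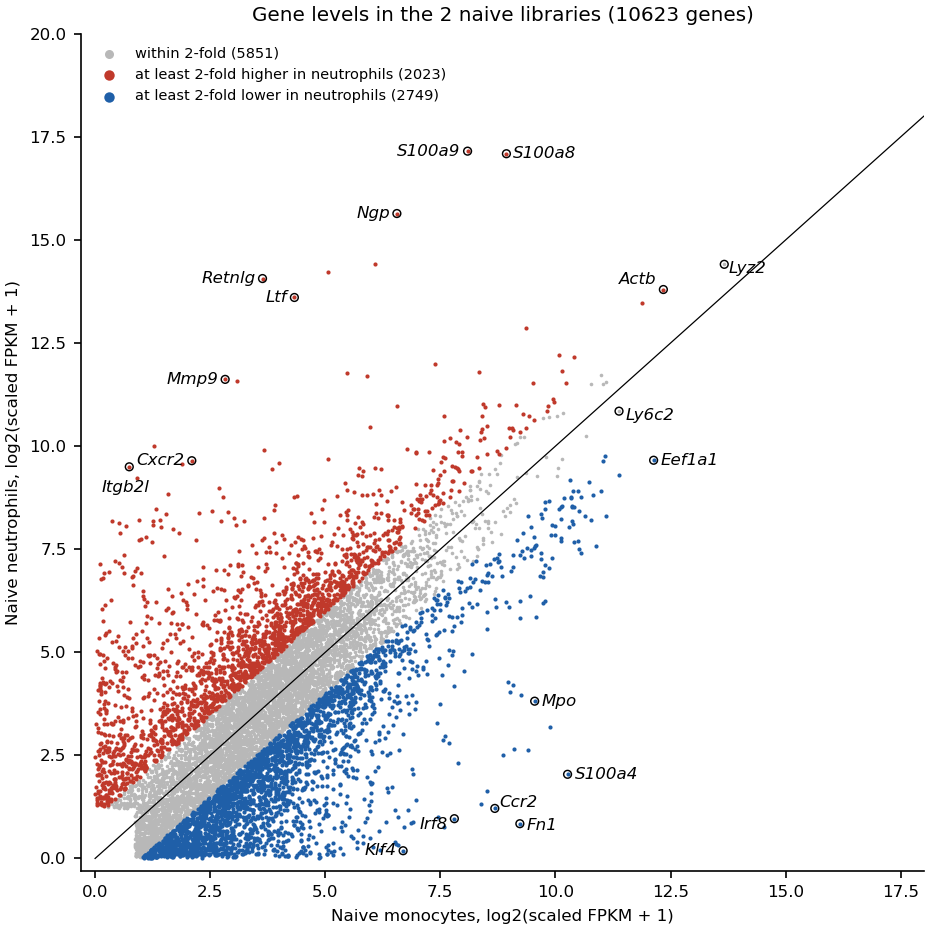
Each point is 1 of 10623 genes, placed by its log2(scaled FPKM + 1) in naïve monocytes (horizontal) and naïve neutrophils (vertical), with the line of equal levels in black and circles on labelled genes. S100a8, S100a9, Ngp, Retnlg and Ltf stand far above the line at high neutrophil levels, Fn1, S100a4, Ccr2 and Klf4 lie near the bottom, and Lyz2 is close to the line.

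A few genes held much of the neutrophil library. With short RNA genes left out, 14 genes held 50% of the FPKM of naïve neutrophils, against 312 genes in naïve monocytes. The 10 highest genes took 48.1% and 9.52%. S100a8 and S100a9, the subunits of calprotectin, a calcium- and zinc-binding protein of the neutrophil cytosol, together took 30.2% of the neutrophil FPKM and 0.179% of the monocyte FPKM. After them in neutrophils came Ngp, Lyz2, Lcn2, Camp, Retnlg, Actb, Ltf and Tmsb4x. In monocytes the highest were Lyz2, Actb, Eef1a1, Tmsb4x, Ly6c2, Psap, Ftl1, Rplp1, Tpt1 and B2m, a set of lysozyme, cytoskeletal, translation and housekeeping transcripts with Ly6c2 among them. Lyz2, Actb and Tmsb4x were in both sets. An FPKM of 1 as deposited was reached by 9052 genes in neutrophils and by 10418 in monocytes. With factors of 0.747 and 1.22, this cut lies at a higher scaled FPKM in neutrophils, and the counts are not on an equal scale.

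**Figure D2:**
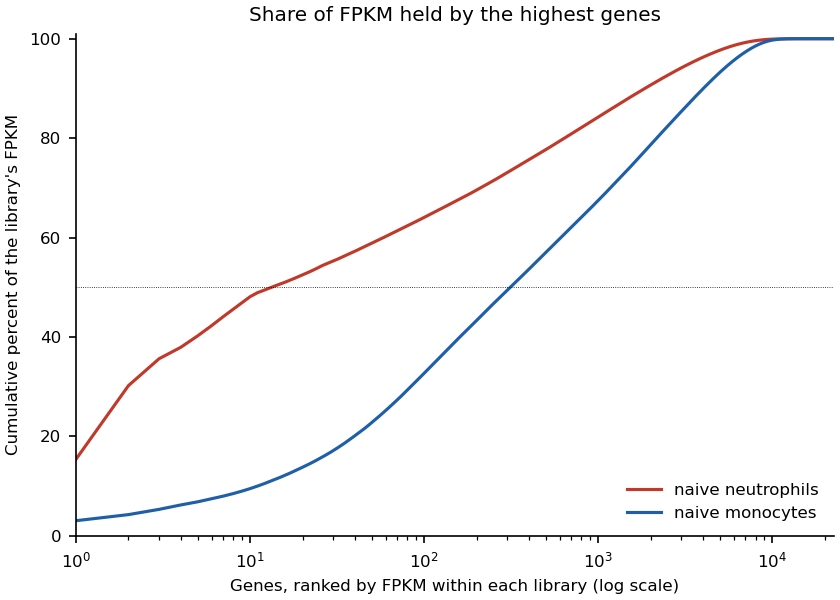
Genes of each naïve library were ranked by FPKM (horizontal, log scale) and their FPKM summed as a percent of the library (vertical), without short RNA genes. The neutrophil curve reaches 50% at 14 genes and the monocyte curve at 312.

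The labelled cell types were checked against their markers. Of 10 neutrophil markers, 10 were at least 2-fold higher in the neutrophil library, with a summed scaled FPKM of 392983 against 1039 in monocytes. Of 9 markers of Ly6Chi monocytes, 8 were at least 2-fold lower in neutrophils (sums 1896 and 4943), and 6 of the 9 were under an FPKM of 1 there. The exception was Ly6c2, at a scaled FPKM of 1842 in neutrophils and 2665 in monocytes, and the related Ly6c1 was at 395 and 563. These near-identical genes may share reads. Ly6C was part of the monocyte gate, yet its mRNA was within 2-fold in both libraries. Csf1r, which encodes CD115 and was also part of that gate, was at 45.4 and 189 (-2.03). Chi3l3, the gene for Ym1, was at 1986 in neutrophils and 353 in monocytes (2.49), where cells with the reporter had been gated out. Ly6g is not among the symbols found.

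Markers of other cells were low in both libraries but not equal. Summed scaled FPKM in neutrophils and monocytes was 3.26 and 12.8 for 8 B cell markers, 11.8 and 15.4 for 8 T and NK cell markers, 34.9 and 17.0 for 8 erythroid markers, and 3.53 and 3.01 for 6 basophil and mast cell markers. The T cell receptor chain Cd3e, the B cell gene Ms4a1, which encodes CD20, and Igll1 were listed at 0 in both. Most of the T and NK cell sum was Cd3d in neutrophils (8.52, and 0.148 in monocytes) and Nkg7 in monocytes (15.2, and 3.23 in neutrophils). The B cell marker Cd79b was at 1.45 in neutrophils and 12.6 in monocytes. Platelet markers were higher in the neutrophil library (75 against 10.6, 5 of 6 at least 2-fold), as were eosinophil markers (112 against 34.0, 5 of 7). Most of both eosinophil sums was Ear2 (76.2 and 28.9), and Epx, the eosinophil peroxidase, was at 0.158 and 0. Of 9 tissue macrophage markers found, 5 were higher in neutrophils and 1, Emr1 (8.98 and 37.3), was lower (sums 45.3 and 40.1). C1qa, C1qb and C1qc, the chains of complement C1q, were at 7.03, 7.05 and 8.65 in neutrophils and under 1 in monocytes. The 8 dendritic cell markers summed to 15.1 in neutrophils and 70.7 in monocytes, of which Bst2, also an interferon-stimulated gene, made up 51.8. Of the 4 compared, 3 were at least 2-fold lower in neutrophils and 1 higher. Stem and progenitor markers summed to 25.1 and 44.1. In such bulk libraries, fewer cells of a type and less RNA per cell cannot be told apart.

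Among the 15 genes with the largest differences above monocytes, Retnlg, a resistin-like secreted protein of myeloid cells, had a scaled FPKM of 17119 in naïve neutrophils and 11.4 in naïve monocytes, a difference of 10.43. Ltf, lactoferrin, was at 12453 and 19.1 (9.28). Camp, the precursor of the antimicrobial peptide cathelicidin, was at 19171 and 32.6 (9.16). Ngp, a cystatin-like granule protein, was at 51073 and 93.0 (9.09). The next were S100a9, Mmp9, Itgb2l, Chi3l1, 1100001G20Rik, Lcn2, Lrg1, S100a8, AA467197, Stfa2l1 and Ceacam10, with differences from 9.06 down to 7.62. Lrg1, a secreted glycoprotein, was at 599 against 0.870, and Itgb2l, an integrin beta chain, at 722 against 0.673.

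Among the 15 genes with the largest differences in the other direction, Fn1, fibronectin, was at a scaled FPKM of 0.794 in neutrophils and 598 in monocytes (-8.38). S100a4, a calcium-binding protein of motile cells, was at 3.11 and 1228 (-8.22), in contrast to its relatives S100a8 and S100a9. Ccr2, the receptor for the chemokine CCL2, was at 1.32 and 409.9 (-7.47). After these came Pld4, Ms4a6c, Irf8, Tifab, F13a1, Crip1, Klf4, Lgals1, Ly86, S100a10, Ms4a4c and BC035044, with differences from -7.07 to -6.19. F13a1, the A chain of coagulation factor XIII, was at 5.18 and 677.

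**Figure D3:**
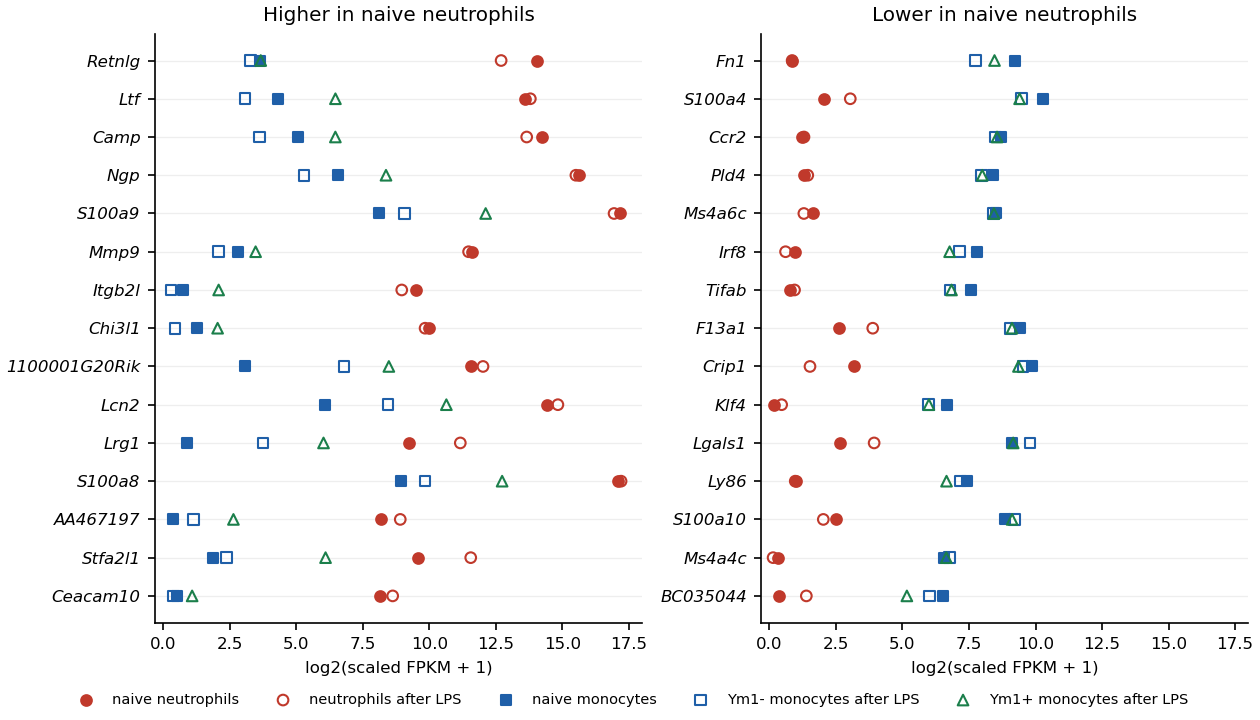
The 15 genes of largest difference in each direction (rows) are shown at their log2(scaled FPKM + 1) in all 5 libraries, filled symbols for the naïve pair and open symbols after LPS, circles for neutrophils, squares for naïve and Ym1- monocytes and triangles for Ym1+ monocytes. Both neutrophil libraries lie to the right of the 3 monocyte libraries in the left panel and to the left of them in the right panel.

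Promoter windows of the genes with the largest differences are shown because they can be searched for the motifs of the factors named above. RefSeq windows (GRCm38.p6, which is not the build of the files) reach from 250 bases before to 50 bases after the start of the gene. The first 3 genes in each direction with a window in the table are printed 5′ to 3′ on the gene's strand, with matches in capitals to the C/EBP motif TTGCNNAA or the PU.1 motif GAGGAAGT, searched on both strands.
Retnlg, chr16:48872358-48872657, plus strand: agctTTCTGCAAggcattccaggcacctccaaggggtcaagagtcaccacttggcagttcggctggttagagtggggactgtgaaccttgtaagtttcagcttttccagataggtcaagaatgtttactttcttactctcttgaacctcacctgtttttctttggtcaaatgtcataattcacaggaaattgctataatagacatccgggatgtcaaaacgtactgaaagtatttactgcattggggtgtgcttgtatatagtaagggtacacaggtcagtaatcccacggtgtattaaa
Ltf, chr9:111019042-111019341, plus strand: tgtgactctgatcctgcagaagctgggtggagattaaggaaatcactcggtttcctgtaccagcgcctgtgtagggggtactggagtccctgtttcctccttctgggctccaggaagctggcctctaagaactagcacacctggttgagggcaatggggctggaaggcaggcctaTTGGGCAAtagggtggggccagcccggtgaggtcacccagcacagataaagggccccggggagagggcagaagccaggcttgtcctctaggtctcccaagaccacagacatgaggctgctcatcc
Camp, chr9:109849407-109849706, minus strand: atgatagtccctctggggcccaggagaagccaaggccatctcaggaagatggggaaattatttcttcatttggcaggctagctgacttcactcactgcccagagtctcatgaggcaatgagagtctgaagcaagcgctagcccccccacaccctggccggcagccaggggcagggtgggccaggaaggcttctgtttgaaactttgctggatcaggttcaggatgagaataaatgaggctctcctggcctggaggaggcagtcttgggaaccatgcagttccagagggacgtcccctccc
S100a4, chr3:90603520-90603819, plus strand: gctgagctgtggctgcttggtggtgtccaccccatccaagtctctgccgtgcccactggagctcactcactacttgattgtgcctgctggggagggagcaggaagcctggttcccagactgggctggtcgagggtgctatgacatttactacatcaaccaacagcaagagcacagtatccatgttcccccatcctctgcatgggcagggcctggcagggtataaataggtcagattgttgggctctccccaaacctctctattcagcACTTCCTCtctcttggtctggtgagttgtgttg
Ccr2, chr9:124101933-124102232, plus strand: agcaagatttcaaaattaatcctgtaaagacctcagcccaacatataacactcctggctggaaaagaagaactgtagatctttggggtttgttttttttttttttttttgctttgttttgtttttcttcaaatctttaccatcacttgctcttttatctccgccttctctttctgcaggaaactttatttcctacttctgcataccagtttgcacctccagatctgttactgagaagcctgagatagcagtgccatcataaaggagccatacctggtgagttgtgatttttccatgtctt
Pld4, chr12:112760405-112760704, plus strand: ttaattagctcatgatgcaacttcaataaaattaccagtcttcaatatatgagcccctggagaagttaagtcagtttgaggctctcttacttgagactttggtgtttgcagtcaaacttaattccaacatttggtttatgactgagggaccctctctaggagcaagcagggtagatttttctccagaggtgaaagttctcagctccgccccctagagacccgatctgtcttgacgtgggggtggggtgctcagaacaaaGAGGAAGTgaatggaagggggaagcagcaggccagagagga
Retnlg and Ltf each hold 1 C/EBP match, S100a4 and Pld4 each hold 1 PU.1 match, and Camp and Ccr2 hold neither. A match is a string of letters and was not shown to be a bound site.

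Of the 10623 genes, 8562 matched a window. The C/EBP motif was in 8.49% of these and in 10.8% of all 27025 windows in the table. It was in 10.1% of 575 windows of genes at least 4-fold higher in neutrophils, in 16.7% (22 of 132) at 16-fold higher and in 8.08% (8 of 99) at 16-fold lower. The PU.1 motif was in 3.68% of the windows of genes compared, in 6.06% at 16-fold higher and in 13.1% (13 of 99) at 16-fold lower. At 4-fold the order was the other way, with the PU.1 motif in 5.57% (32 of 575) higher and 4.99% (36 of 722) lower. The RUNX motif TGTGGT was in 12.6% of the windows of genes compared, in 24.2% at 16-fold higher and in 17.2% at 16-fold lower. The letters TATAAA were in 6.97%, 15.9% and 11.1% of the same sets. The windows also differed in composition, with a median GC content of 60.7% over the genes compared, 54% at 16-fold higher and 58.3% at 16-fold lower. The part of base composition in these shares was not tested.

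For 41 gene lists the members were counted against the 19.0% higher and 25.9% lower over all genes, and members outside the naming rule were named after their values had been seen. The widest contrast between lists was within the granules. Of 8 azurophil granule genes compared, 1 was at least 2-fold higher in neutrophils and 5 were lower, with a median of -4.79. Mpo, myeloperoxidase, had a scaled FPKM of 13.1 in naïve neutrophils and 748 in naïve monocytes. The serine proteases Elane (18.3 and 500.0), Prtn3 (15.4 and 516) and Ctsg (3.95 and 234) and their activating protease Ctsc (6.02 and 206) were likewise lower. Prss57, another granule serine protease, was at 12.0 and 3.56. The lysozymes Lyz2 (21743 and 13002) and Lyz1 (3402 and 2019), which are near-identical and may share reads, were within 2-fold. Neutrophils after LPS had Mpo at 154, Elane at 223 and Prtn3 at 420.4, and Ym1- monocytes after LPS had 319, 222 and 663, so that the list median of that pair was -0.32. Among progenitor markers Cd34 was at 0.349 in naïve neutrophils and 16.7 in naïve monocytes, Flt3 at 0.190 and 4.12 and Kit at 9.37 and 3.05, and their part in the azurophil values was not tested.

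Specific granule genes went the other way. Of 13 compared, 12 were higher and none was lower, with a median of 4.42. Besides Ltf, Ngp and Camp, the neutrophil library was higher for Lcn2, the siderophore-binding lipocalin (21706 and 66.6), Chi3l1, a chitinase-like protein (1017 and 1.43), Olfm4, olfactomedin, (289.99 and 1.39) and Cd177, a surface glycoprotein of neutrophils (1996 and 92.6). Cnnm3, a divalent metal transporter family member, was at 6.41 and 6.32. Gelatinase granules and secretory vesicles had 9 genes compared, of which 8 were higher and none lower (median 5.78). Mmp9, gelatinase B, was at 3142 and 6.09, and Mmp8, neutrophil collagenase, at 3323 and 59.4. Both granule lists held their sign with FPKM as deposited and with TPM.

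Cytosolic defense genes divided within families. Of 8 S100 genes, 4 were higher and 3 lower (median 1.31). S100a8 was at 139557 and 488, S100a9 at 145723 and 272, and S100a11 at 7419 and 659.6, whereas S100a10, a partner of annexin A2, was at 4.71 and 461. Of 7 stefin genes, which encode inhibitors of cathepsins, 6 were higher and none lower (median 5.09), with Stfa2l1 at 754 and 2.67 and Stfa1 at 130.3 and 0.875. These neighbours are alike in sequence and may share reads. Cstb, the ubiquitous cystatin B, was at 54.1 and 76.5. Iron genes had 6 higher and 4 lower members, with a median of 0.42 that was -0.25 with FPKM as deposited and -0.66 with TPM. Slc40a1, the iron exporter ferroportin, was at 147 and 0.354, and Steap3, a ferrireductase, at 0.154 and 8.15. Macrophages also make ferroportin. Of 7 tissue macrophage markers compared, 5 were higher in the neutrophil library, among them the C1q chains, at 7.03 to 8.65 there. Emr1 was lower (8.98 and 37.3) and Mrc1 within 2-fold (1.49 and 1.73). The part of macrophages in the Slc40a1 value was not tested.

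No chemoattractant receptor compared was within 2-fold. Of 13 compared, 10 were higher in neutrophils and 3 lower, with a median of 2.36. Cxcr2, the receptor for CXCL chemokines that calls neutrophils out of the marrow, was at 800.1 and 3.29. The formyl peptide receptors Fpr1 (456 and 2.01) and Fpr2 (774 and 14.9), the complement receptor C5ar1 (340.5 and 4.77) and the leukotriene receptor Ltb4r1 (285 and 54.8) were higher as well. Lower genes included the monocyte receptors Ccr2 and Cx3cr1 (0.149 and 72.3). Cxcr4, which retains cells in the marrow, was at 467 and 188 in the naïve pair and at 114 and 169 in neutrophils and Ym1- monocytes after LPS.

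Growth factor and cytokine receptors were mixed, with 6 higher and 7 lower of 19, and the median of 0.45 was -0.22 with FPKM as deposited and -0.62 with TPM. Csf3r, the receptor for G-CSF, was at 620.3 and 54.3, and Il1r2, the decoy receptor for IL-1, at 121 and 0.548. Il6st, the shared signalling chain gp130, was at 0.200 and 38.7, and the IL-10 receptor chain Il10ra at 6.35 and 49.4. The interferon receptor chains Ifnar1 (20.9 and 20.2) and Ifnar2 (94.9 and 128) were within 2-fold. Of 16 adhesion molecules, 8 were higher and 5 lower (median 0.81, with FPKM as deposited 0.11 and with TPM -0.29). The beta-2 integrin chains Itgb2 (1330.3 and 243) and Itgam (925 and 124) were higher, and the integrin chains Itgb7 (17.2 and 222), Itga4 (16.4 and 67.8) and Itgb1 (20.3 and 70.2) lower.

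Of 6 Fc receptor genes, 3 were higher and 2 lower, and the median of 0.20 turned to -0.50 with FPKM as deposited and -0.91 with TPM. Fcgr4, a low-affinity activating receptor, was at 193 and 9.67, whereas Fcgr1, the high-affinity receptor, was at 0.496 and 14.7 and Fcgrt, the recycling receptor FcRn, at 0.428 and 25.7. Of 17 genes for Toll-like receptors and LPS sensing, 5 were higher and 4 lower, and the median of 0.15 was -0.52 with FPKM as deposited and -0.93 with TPM. Tlr9, a DNA sensor, was at 0.121 and 24.5, and Tlr5, the flagellin receptor, at 14.6 and 1.79. Tlr4, the LPS receptor, was at 16.9 and 5.04, its partner Ly96 at 21.7 and 19.5 and the co-receptor Cd14 at 4.16 and 9.47. C-type lectin, TREM and paired receptors were mostly higher, 15 of 21 with 3 lower (median 1.78). Among them were Clec4d (237 and 2.54) and Clec4e (75.8 and 4.21), receptors for mycobacterial glycolipids, and Trem1, an amplifier of inflammation (88.2 and 1.07). The lower members were Clec4a1 (2.33 and 86.8), Clec4a3 (2.27 and 79.6) and Trem2 (0.149 and 22.6).

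Of 8 NADPH oxidase genes, whose products make superoxide in phagocytes, 7 were higher and none lower (median 1.94). Ncf1, the organizer p47phox, was at 1691 and 189, Cyba at 1396 and 529, Cybb at 845 and 311 and Rac2 at 1181 and 209, while Rac1, the ubiquitous relative of Rac2, was at 211 and 244. Of 12 leukotriene and prostaglandin genes, 7 were higher and 1 lower (median 1.52). Alox5, the 5-lipoxygenase that begins leukotriene synthesis, was at 289.998 and 5.67, its partner Alox5ap at 1688 and 683 and Lta4h, which makes leukotriene B4, at 483 and 85.7. Hpgd, which breaks down prostaglandins, was at 2.51 and 39.2.

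Of 12 genes of the IL-1 family and the inflammasome, 5 were higher and 3 lower (median 0.87, with TPM -0.21). Il1b was at 162 and 0.556, Il1f9, which encodes IL-36 gamma, at 295 and 1.67, and the antagonist Il1rn at 210.3 and 3.57. The sensors and adaptor Nlrc4 (0.398 and 6.12) and Pycard (16.7 and 51.2) were lower, and Casp1 was at 33.4 and 30.4. In neutrophils and Ym1- monocytes after LPS, Il1b was at 36.6 and 0.630. Of 18 chemokine ligands only 7 could be compared, with 3 higher and 3 lower (median -0.50). Ccl6 was at 1179 and 348 and Ccl9 at 1.26 and 110.03. The other 2 higher ones, Pf4 (22.6 and 2.93) and Ppbp (36.6 and 5.70), are platelet genes, and the part of platelets in them was not tested.

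**Figure D4:**
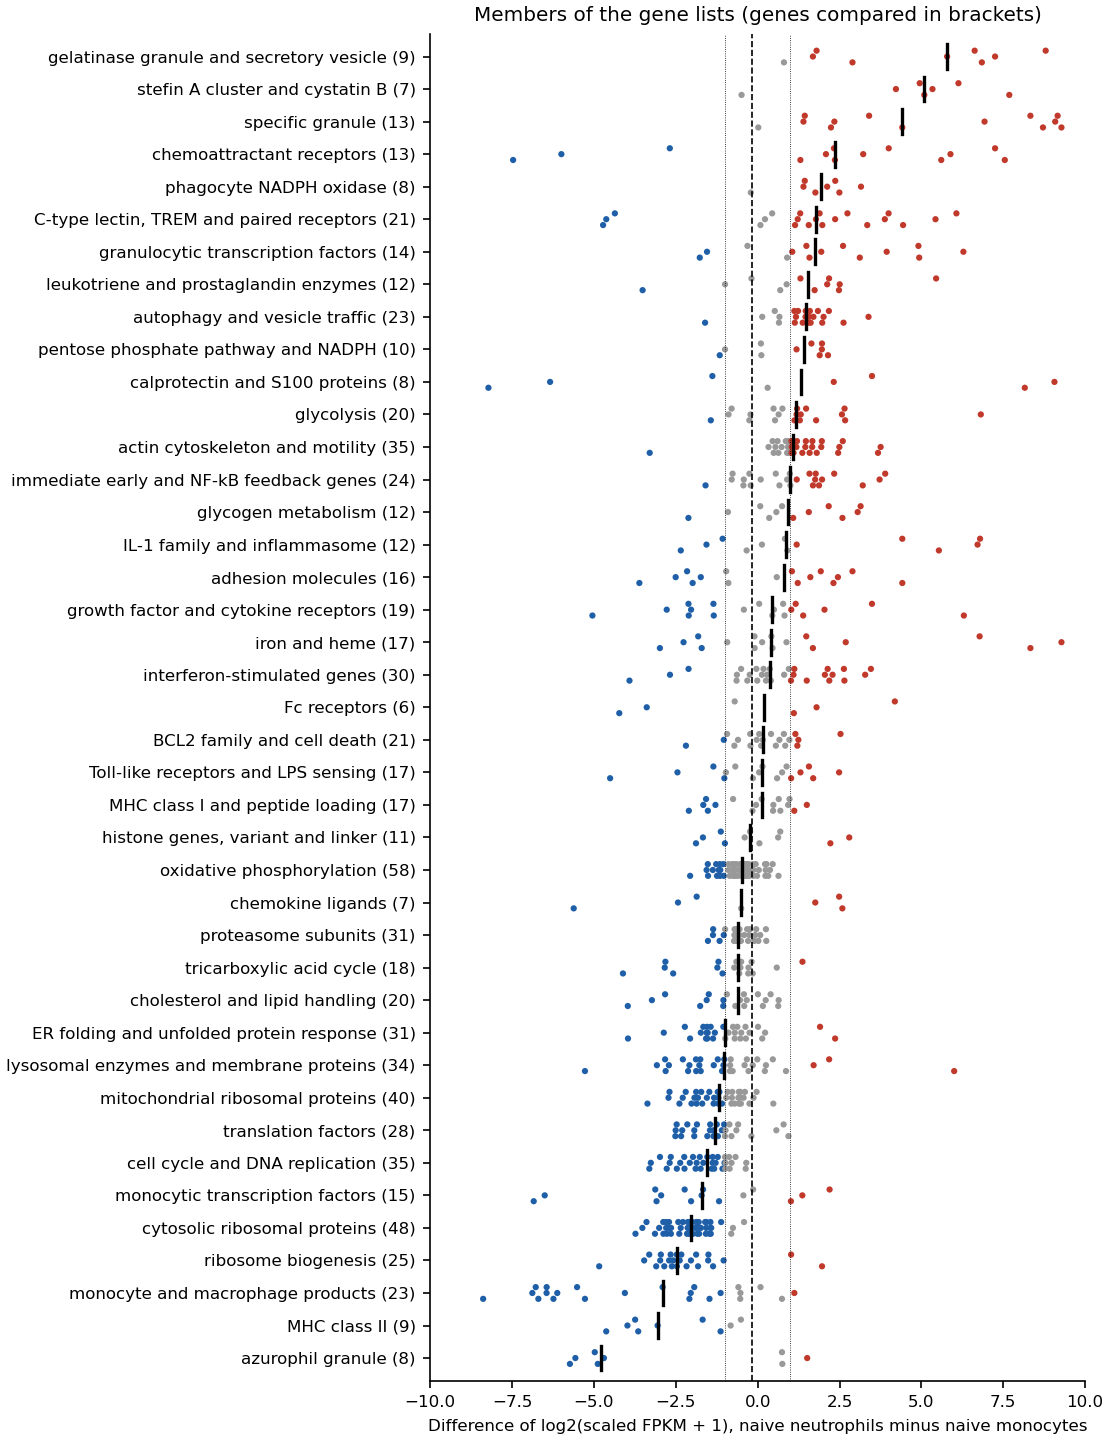
Each row is 1 of 41 gene lists with the number of genes compared, each point a member's difference of log2(scaled FPKM + 1), naïve neutrophils minus naïve monocytes, red at 2-fold higher, blue at 2-fold lower and grey between, with the list median as a black bar. The dashed line is the median of all genes (-0.18), and the medians run from -4.79 for azurophil granule genes to 5.78 for gelatinase granule and secretory vesicle genes.

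Transcription factors followed the lineage lists in part. Of 14 genes listed as granulocytic factors, 10 were higher and 2 lower, with a median of 1.76. The 10 higher included Trib1 and Zfp36, which do not encode transcription factors, and Sfpi1, whose product is needed for both lineages. Cebpe, the factor of late granule genes, was at 288 and 8.45, Gfi1, a repressor needed for neutrophils, at 11.8 and 0.470, Mxd1, an antagonist of MYC, at 504 and 5.49, and Klf5 at 41.4 and 0.411. Cebpd was at 171 and 27.3, but Cebpa (12.9 and 46.5) and Cebpb (53.4 and 158) were lower in neutrophils. Sfpi1, which encodes PU.1, was at 675 and 240.3. Of 15 monocytic factors, 10 were lower and 3 higher (median -1.71). Irf8 was at 0.951 and 222, Klf4 at 0.139 and 102.3, Irf5 at 20.7 and 184 and Zeb2 at 4.14 and 44.0. The higher ones were Id2 (97.5 and 37.3), Nfkbiz (16.6 and 2.85) and Spic (1.73 and 0.353).

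Of 23 monocyte and macrophage products, 17 were lower and 1 higher (median -2.90). The lower ones included Ctss, cathepsin S (14.7 and 608), Lgals1, galectin-1 (5.29 and 547), and the membrane proteins of the Ms4a6 group, with Ms4a6c at 2.11 and 365. Vim, vimentin (703 and 1058), and Lgals3, galectin-3 (605 and 569), were within 2-fold. Of 9 MHC class II genes, 7 were lower and none higher (median -3.06), with the invariant chain Cd74 at 5.15 and 95.9 and the peptide loader H2-DMa at 6.83 and 192. Genes of MHC class I and peptide loading had 2 higher and 5 lower of 17. Their median of 0.12 was -0.58 with FPKM as deposited and -0.98 with TPM. The lower ones were Psmb10, Canx, Calr, Nlrc5 and Erap1, and no H2 gene of this list was at least 2-fold lower. B2m, the shared light chain of class I, was at 2907 and 2099.6. Of the 4 dendritic cell markers compared, Cd209a (0.410 and 10.4), Flt3 (0.190 and 4.12) and Bst2 (7.24 and 51.8) were also lower in neutrophils. The remaining one, Itgax, was higher (6.98 and 0.605). The part of dendritic cells in the class II values was not tested.

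Of 30 interferon-stimulated genes, 12 were higher and 3 lower, and the median of 0.39 was -0.28 with FPKM as deposited and -0.68 with TPM. The membrane restriction factors Ifitm6 (3537 and 321) and Ifitm1 (215 and 21.2) were higher, Ifitm3 was at 623 and 777, and Mx1, an antiviral GTPase, was at 0.158 and 16.5. In the pair after LPS 18 of 31 were higher and 3 lower, against 18.1% and 23.8% over all genes of that pair. Of 24 immediate early and NF-kB feedback genes, 11 were higher and 1 lower in the naïve pair (median 0.99, with TPM -0.06). Dusp1, a MAP kinase phosphatase, was at 50.2 and 2.44, Ier3 at 38.2 and 1.97 and Tnf at 32.1 and 5.56, while Fos (11.8 and 21.2) and Jun (3.08 and 5.95) were within 2-fold.

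Genes for making proteins were largely lower in neutrophils. Of 48 cytosolic ribosomal protein genes, 45 were lower and none was higher, with a median of -2.05. They took 1.27% of the FPKM of naïve neutrophils and 10.9% of that of naïve monocytes. Rpl10a was at 56.4 and 762 and Rplp1 at 314 and 2185, whereas Rps9 was at 1216 and 1625. Many of these genes have near-identical pseudogenes that may take part of their reads. Of 25 ribosome biogenesis genes, 23 were lower, with Fbl, the nucleolar fibrillarin, at 3.16 and 118 and Npm1, nucleophosmin, at 22.4 and 258 (median -2.47). The 2 higher ones were Polr1a (32.4 and 7.55) and Bysl (26.6 and 12.6). Of 28 translation factors, 18 were lower and none higher (median -1.30), with Eef1a1 at 806 and 4488. Of 40 mitochondrial ribosomal protein genes, 22 were lower (34 with FPKM as deposited) and none higher (median -1.19).

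Of 31 genes of ER folding and the unfolded protein response, 15 were lower (25 with FPKM as deposited) and 2 higher (median -0.99), with the chaperone Calr, calreticulin, at 94.4 and 284, and the stress factor Ddit3, CHOP, at 33.1 and 5.62. Of 31 proteasome subunits, 5 were lower and none higher (median -0.60), against 21 lower with FPKM as deposited. Of 35 cell cycle and DNA replication genes, 26 were lower and none higher (median -1.54). The replicative helicase subunits Mcm3 (6.07 and 66.9) and Mcm2 (5.31 and 48.9) and the clamp Pcna (44.8 and 216) were lower, as were the mitotic genes Aurkb (13.9 and 53.1) and Top2a (44.2 and 109). Within 2-fold after scaling were 9 genes, among them the mitotic Cdk1 (16.4 and 30.9) and Kif23 (27.5 and 35.3) and the replication genes Cdc45 (20.3 and 36.1) and Tyms (10.5 and 13.8). With FPKM as deposited all 35 genes were lower. Of 11 histone genes, 2 were higher and 4 lower (median -0.23). The lysosomal list had 18 lower and 3 higher of 34 (median -1.03). Psap, prosaposin, was at 626 and 2661, and the 3 higher ones were the tetraspanin Cd63 (437 and 5.84), Ctsd, cathepsin D (857 and 188), and Neu1, sialidase (40.1 and 11.6).

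The lists of energy metabolism had medians of either sign after scaling. The glycolysis list had 11 higher and 1 lower of 20 (5 and 3 with FPKM as deposited), and its median was 1.15 (0.46 with FPKM as deposited, 0.05 with TPM). The glucose transporter Slc2a3, GLUT3, was at 325 and 1.90, the hexokinase Hk3 at 312 and 51.6 and the lactate exporter Slc16a3 at 159 and 24.1, and Pfkm, the muscle phosphofructokinase, was at 0.151 and 2.1. Of 12 glycogen genes, 6 were higher and 1 lower (median 0.91, with TPM -0.16). Pygl, the liver-type phosphorylase, was at 968 and 109, and Gys1, glycogen synthase, at 53.5 and 5.57. Of 10 genes of the pentose phosphate pathway and NADPH supply, 6 were higher and 1 lower (median 1.41), with G6pdx, the entry enzyme, at 493 and 157 and Pgd at 1061 and 239. Oxidative phosphorylation genes were mostly within 2-fold, 45 of 58, with 13 lower and none higher (median -0.47). Over all genes compared, 25.9% were lower and 19.0% higher. With FPKM as deposited 41 of the 58 were lower. Of 18 genes of the tricarboxylic acid cycle, 7 were lower and 1 higher (median -0.61), against 12 and none with FPKM as deposited. Idh2, the mitochondrial isocitrate dehydrogenase, was at 2.63 and 61.9, and Mdh2, malate dehydrogenase, at 322 and 124. Of 20 genes of cholesterol and lipid handling, 8 were lower (13 with FPKM as deposited) and none higher (median -0.61), with Apoe at 29.9 and 289 and the lipoprotein lipase Lpl at 0.985 and 30.03.

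Motility, vesicle traffic and survival genes closed the lists. Of 35 actin cytoskeleton genes, 21 were higher (8 with FPKM as deposited) and 1 lower, with a median of 1.09 that was 0.39 with FPKM as deposited and -0.02 with TPM. Vasp, which speeds filament growth, was at 712 and 51.9, and Lcp1, the leukocyte bundling protein L-plastin, at 2074 and 342. The lower one was Tmsb10, a thymosin that binds actin monomers (189.6 and 1873). Of 23 autophagy and vesicle traffic genes, 18 were higher (7 with FPKM as deposited) and 1 lower (median 1.47), with Wipi1, a phosphoinositide-binding autophagy protein, at 52.3 and 4.10, and the secretory granule genes Rab27a (188 and 67.6) and Unc13d (61.4 and 14.5). Of 21 genes of the BCL2 family and cell death, 4 were higher and 2 lower, and the median of 0.16 was -0.31 with FPKM as deposited and -0.69 with TPM. Mcl1, a survival factor that neutrophils need, was at 323 and 145, the death receptor Fas at 52.1 and 8.21, Bax at 13 and 63.1 and Bcl2 at 0.255 and 1.57.

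Neutrophils and Ym1- monocytes after LPS offer a second pair of libraries of the same cell types. Over the 10372 genes compared there, 1875 (18.1%) were at least 2-fold higher and 2470 (23.8%) at least 2-fold lower in neutrophils, with a median of -0.19. No library is shared between the pairs, but the cells after LPS also differ in treatment. Of 1884 genes higher in the naïve pair and compared in both, 1454 (77.2%) were 2-fold higher after LPS, 9 were 2-fold lower and 1843 (97.8%) had the same sign. Of 2639 lower genes, 1933 (73.2%) were 2-fold lower after LPS and 12 were 2-fold higher. Read from the other side, the shared genes were 79.9% of the 1820 higher and 81.2% of the 2381 lower after LPS.

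For 26 of 41 lists the medians of the pairs were less than 1.5-fold apart, and 15 moved by at least 1.5-fold. The sign changed for 3, which were ER folding, cholesterol and lipid handling (-0.61 and 0.11) and the BCL2 family (0.16 and -0.096). Stefin genes had a median of 5.09 in the naïve pair and 9.91 after LPS, with Stfa2 at 91.4 and 1.99 in the naïve pair and at 4853 and 4.04 after LPS. Specific granule genes had 4.42 and 6.38, and interferon-stimulated genes 0.39 and 1.56. Azurophil granule genes had -4.79 and -0.32. Cytosolic ribosomal protein genes had -2.05 and -1.12, with 29 of 48 lower after LPS. ER folding genes had -0.99 and 0.08, with Calr at 576 in neutrophils and 798 in Ym1- monocytes. Gelatinase granule genes had 5.78 and 4.75. Whether the difference between cell types changed with LPS could not be tested with 1 library per condition.

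**Figure D5:**
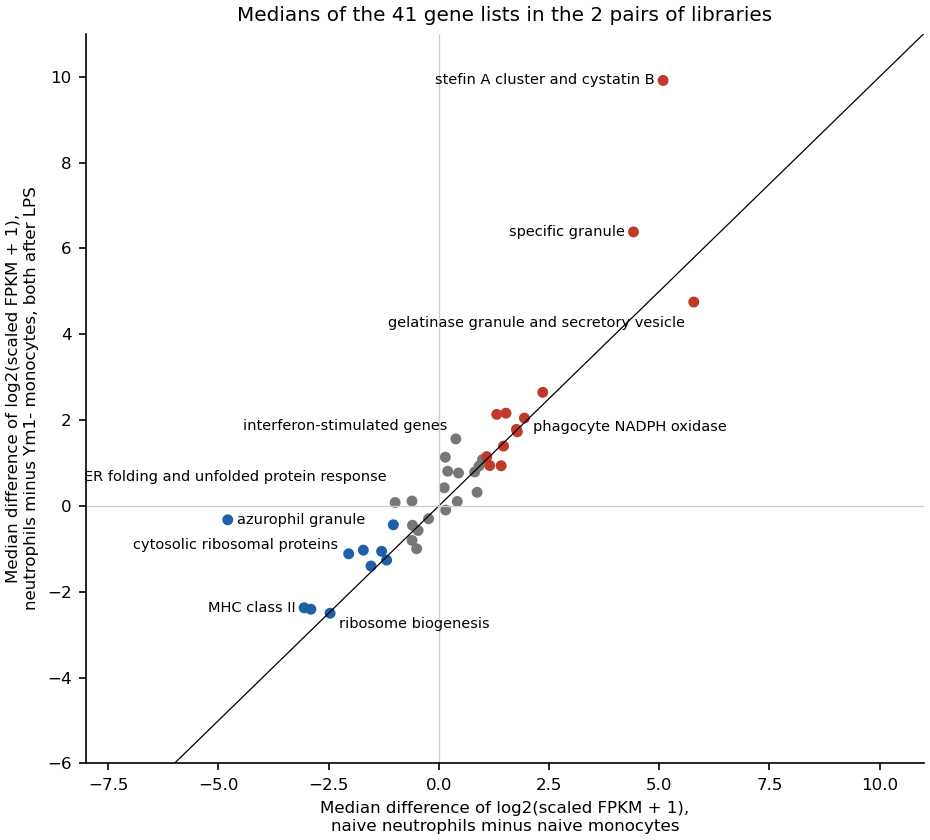
Each point is 1 of 41 gene lists, placed by its median difference of log2(scaled FPKM + 1) in the naïve pair (horizontal) and in neutrophils against Ym1- monocytes after LPS (vertical), with the line of equality. Stefin (5.09 and 9.91) and azurophil granule genes (-4.79 and -0.32) lie far above the line, while MHC class II and ribosome biogenesis genes lie near it.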

How the data were processed

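FPKM was deposited for each gene symbol. TopHat2 2.0.8 and Cufflinks 2.1.1 stand in the processing notes of the submitters, with mm9 as the build, and neither options nor annotation are given in the sources used here. RNA was made into libraries with a strand-specific SureSelect kit. From the files, FPKM was scaled by the median of ratios, and differences of log2(scaled FPKM + 1) were taken where either library reached an FPKM of 1, with Python 3.11.15, numpy 2.4.6 and pandas 2.3.3. Genes whose symbols begin with Mir, Snor or Scarna were left out, as was any gene listed at 0 in either library, since a 0 can be a failed estimate, and 25 symbols turned into dates were not named. With 1 library per condition no test was possible. The steps were tested on simulated data without low genes and with as many genes raised as lowered. Low genes and an unbalanced pair of libraries were not covered by that test.

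The members, the 41 gene lists (871 entries, 868 found) and the tests were chosen with earlier results of these data known. Genes were named by rule: the 15 largest differences each way among genes that reached an FPKM of 10, the 10 highest genes per library, up to 4 members per list, the cell type markers, 4 genes of the gates and reporter, and the 5 highest genes listed at 0 in the other library. Other list members were named after their values were seen.

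Depth was roughly estimated from the steps between low values with GENCODE transcript lengths, which may differ from those used for the files. Of 1079 pairs of low values, 13.5% lay within 2% of their most frequent ratio, 1.53 for monocytes over neutrophils. An FPKM of 10 for a 2 kb transcript stood for about 190 fragments in naïve neutrophils and 117 in naïve monocytes. For counting error only, the 95% Poisson intervals were 8.63 to 11.5 and 8.27 to 12.0. An FPKM of 1 had intervals of 0.602 to 1.56 and 0.512 to 1.76. The alternatives tried are listed in the closing section. Some list members are not reported here.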

Additional observations from a re-analysis of the deposited data

Results flagged for a closer look

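For 6 marker genes of other cell types the naïve pair and the pair after LPS (neutrophils minus Ym1- monocytes) differed by at least 2-fold in opposite directions, and the difference between the pairs was not tested. Nkg7, a cytotoxic granule protein of NK and T cells, was at a scaled FPKM of 3.23 in naïve neutrophils and 15.2 in naïve monocytes (-1.93), and at 28.0 and 4.65 after LPS (2.36). Prg2, the eosinophil major basic protein, was at 4.97 and 0.197 in the naïve pair (2.32) and at 0.480 and 23.2 after LPS (-4.03). The eosinophil-associated ribonucleases Ear1, Ear2 and Ear6 had differences of 2.07, 1.37 and 2.34 in the naïve pair and of -2.58, -1.13 and -2.50 after LPS. These ribonuclease genes are alike in sequence and may share reads. C1qb was at 7.05 and 0.146 in the naïve pair (2.81) and at 1.77 and 12.2 after LPS (-2.25).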

How the results depend on the processing

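With FPKM as deposited 1074 genes passed 2-fold upward and 4474 downward (median -0.77), so that 19.4% of the genes past 2-fold were higher, and with TPM 825 were higher and 5912 lower (median -1.19, 12.2% higher), against 42.4% higher after scaling. At a 4-fold threshold 723 were higher and 909 lower. The median of 34 of 41 lists kept its sign with FPKM as deposited, and 12 lists turned with TPM. Moves of at least 1.5-fold were seen in 33 list medians and 125 of 181 named genes with FPKM as deposited. With TPM 40 list medians and 162 named genes moved so, besides 1 list and 2 genes that turned from past 2-fold. Of 181 named genes 9 changed sign with FPKM as deposited and 16 with TPM, and of 170 named genes 16 did in the pair after LPS. Counting only lists and genes past 2-fold in the naïve pair, with TPM the actin list turned to -0.021, Fcer1g to -0.0052 and Hba-a1 to -0.035. In the pair after LPS, counted in the same way, the sign turned for Nkg7 (2.36), Prg2 (-4.03), Ear1 (-2.58), Ear2 (-1.13), Ear6 (-2.50), C1qa (-0.57), C1qb (-2.25) and C1qc (-0.96), and the cause was not tested. Scaling over the 2 naïve libraries, a pseudocount of 0.1, a minimum FPKM of 5, no filter on low values, and short RNA genes and genes listed at 0 kept changed the sign of no list median and of no named gene. With a pseudocount of 0.1, however, 47 of the 181 named genes and 2 of the 41 list medians moved by at least 1.5-fold. No paired analysis was possible because each condition has 1 library.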

Other observations

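Genes listed at 0 in 1 naïve library had no place in the comparison. The 5 highest of those listed at 0 in monocytes were 1700047M11Rik, Gm19705, Rhoc, Inhba and Cd55, at scaled FPKM of 95.1, 63.0, 39.3, 33.0 and 29.6 in neutrophils. Inhba encodes an activin subunit, and Cd55 a regulator of complement. In neutrophils after LPS they were at 17.7, 23.9, 20.3, 28.5 and 21.3, and in Ym1- monocytes at 0, 0.842, 0.623, 0.267 and 0. Of those listed at 0 in neutrophils, Ccdc109b, a subunit of the mitochondrial calcium uniporter, was at 54.5 in naïve monocytes, Ms4a8a at 36.1, Galnt9 at 26.9 and Gm15987 at 25.6. Neutrophils after LPS had 2.18, 0, 0.897 and 0.520 for these genes, and Ym1- monocytes 65.7, 15.9, 10.7 and 21.0. A further gene at 0 in naïve neutrophils, whose symbol had been turned into a date, was at 83.6 in neutrophils after LPS.

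The balance of directions moved with the level of a gene. Of 4991 genes with a mean scaled FPKM under 10, 11.8% were at least 2-fold higher in neutrophils and 32.3% lower, with a median difference of -0.55. The minimum FPKM of 1 was set before scaling, so that low genes entered at a lower scaled FPKM through monocytes than through neutrophils. The part of this filter in the shares of low genes was not tested. Of 255 genes at 300 or more, 43.5% were higher and 31.8% lower, with a median of 0.76. By GENCODE transcript length, the median was -0.35 under 700 bases and -0.09 at 3000 bases or more. Lengths were found for 9557 of the genes compared.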
